A study of Saccharomyces cerevisiae with 76 samples.

Results

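The pre-mRNA splicing factor genes of budding yeast were described by the binding of Abf1 at their promoters and open reading frames (ORFs). The set holds 47 listed genes of 6002 nuclear protein-coding ORFs, all found in the annotation of the sacCer3 genome. A peak of the deposited list belonged to a gene if its summit lay inside the ORF or at most 1000 bp upstream of the start codon, and this gave 12 summits of the 948 in the list. They were found for 10 of the 47 genes, and the same rule called 19.4% of all ORFs.

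The study followed the release of Abf1 from DNA by ChIP-seq in Saccharomyces cerevisiae, over 11 time points and 76 samples including inputs. The values here are from t = 0, before depletion, when cells of the Abf1 anchor-away strain had been in DMSO for 90 min without rapamycin. This strain is BY4742 MATalpha with tor1-1, fpr1del and RPL13A-FKBP12-NAT, and it carries Abf1-FRB-yEGFP-3V5-hphMX4, so that Abf1 was precipitated through its V5 tag. The tag slows growth slightly. The untagged strain shares tor1-1, fpr1del and RPL13A-FKBP12-NAT and was not analysed here, so signal that does not depend on the tag was not measured. The 3 immunoprecipitations and the 3 inputs of t = 0 were pooled by the authors before peaks were called. Every peak therefore has 1 value and no spread between replicates, and no difference between genes was tested. The 95% intervals below are exact Poisson intervals on the fragments at the summit, with the background held fixed. They cover the counting error of these fragments only, and not that of the inputs. The total depth of each library was not analysed here.

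Splicing is carried out by the spliceosome, which is built from 5 small nuclear ribonucleoproteins (snRNPs) and many further proteins. The Sm ring sits on the U1, U2, U4 and U5 RNAs and the LSm ring on U6. The U4/U6.U5 tri-snRNP brings in the RNAs that form the active site, the Prp19 complex stabilises it, and helicases drive the steps and the release. Abf1 is an abundant and essential DNA-binding protein that organises chromatin at many yeast promoters, often by keeping nucleosomes away.

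The consensus matches near summits at these genes are shown first. Which of them carry the signal was not tested. Capitals mark the 13 bases that match the Abf1 consensus (searched on both strands) and lower case marks 8 flanking bases on each side. All sequences are 5′ to 3′ on the strand of the match, in sacCer3. They are given in the order of fold enrichment of their summits, since they contain every match within 100 bp of a summit of fold enrichment 4 or more.
PRP8 (chrVIII:437124-437152, + strand): aatttcatATCATTTAGTACGaatagcta
LSM4, left site (chrV:386964-386992, + strand): gcattttgATCATCAATTACGaaatttgc
LSM4, middle site (chrV:386991-387019, - strand): gagtgcttATCACGTGACACGtgtgcggc
LSM4, right site (chrV:387017-387045, + strand): ctcttactATCATGTTTTACGgagtagca
LSM7, left site (chrXIV:350101-350129, + strand): atgtgcccATCACGTCCAACGgtagtggt
LSM7, right site (chrXIV:350159-350187, - strand): actgtcgtGTCACAGTAGACGggagcgct
CWC2 (chrIV:87348-87376, - strand): agcattccATCGTTACATACGtacatatg
SMX2, in the ORF (chrVI:103804-103832, - strand): tccattgcATCATCAAGAACGacgtttaa
LSM3 (chrXII:1014326-1014354, + strand): cgcgacctATCACACAGCACGgatagcca

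A further 4 promoters held a consensus match within 300 bp of the start codon and had no listed summit within 100 bp of it. A pair of these, chosen after their values were seen because 1 has the highest motif score of the 4 and the other begins like the PRP8 site, is shown for comparison.
SMD1, no summit (chrVII:635580-635608, - strand): attgaaaaATCATTAAATACGaaactcag
PRP40, no summit (chrXI:418147-418175, - strand): aatttcatATCGTTTACCACGtcgcccct

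Of the 47 splicing factor genes, 10 (21.3%) had an Abf1 summit, and the same rule called 19.4% of all ORFs (1167 of 6002). A fold enrichment of 4 or more, the line for strong binding, was reached at 6 of the 47 genes (12.8%), against 9.88% of all ORFs (593 of 6002). Both shares are near the background, so the number of bound genes is not a result about splicing factor genes. The fold enrichment of a summit is the fragment pileup over the background from the inputs, each with 1 added. The highest value per gene had a median of 5.24 over the 10 splicing factor genes with a summit (quartiles 2.99 and 18.2), against 4.15 over the 1167 ORFs with one (quartiles 2.81 and 12.3). Of the 10 genes, 3 reached a fold enrichment of 20, and of the 1167 ORFs, 197 did (16.9%). With 10 genes, neither this share nor the median can be read as a difference from other ORFs.

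**Figure D1:**
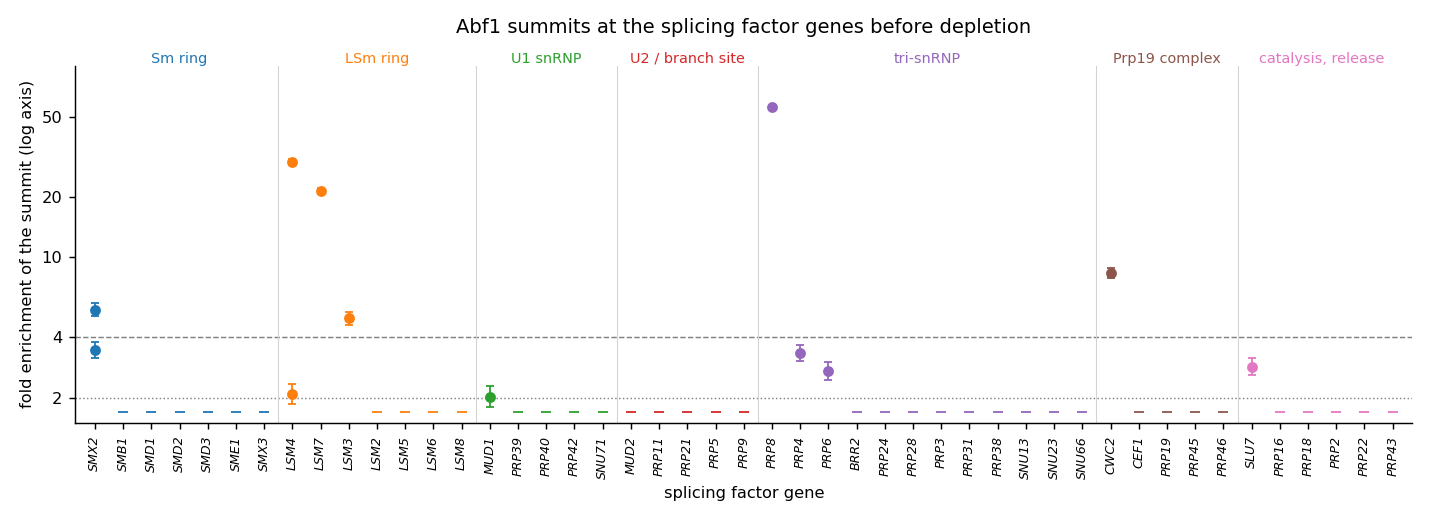
Fold enrichment of every Abf1 summit (log axis) at each of the 47 splicing factor genes, grouped loosely by complex or step. Points are summits with 95% counting intervals, and short dashes below the axis value of 2 mark genes with no listed summit. The lines are at 2 (the minimum of the list) and 4. PRP8, LSM4 and LSM7 stand above 20, no gene of the U2 group has a summit, and 37 genes have none.

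**Figure D2:**
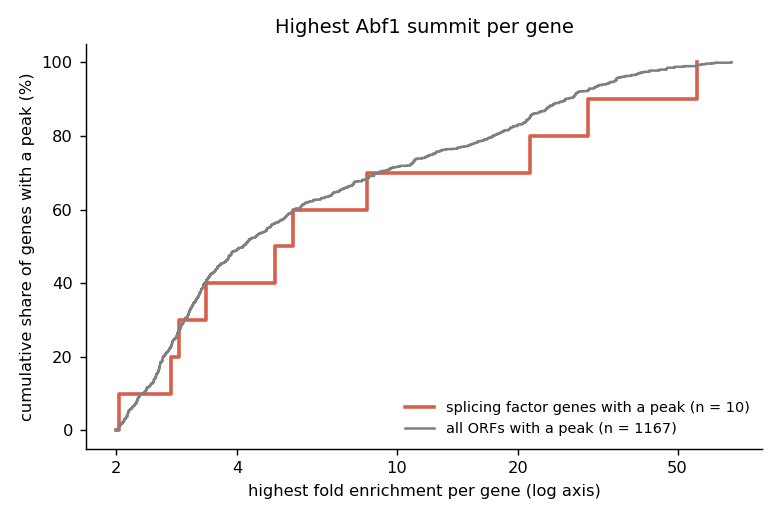
Cumulative share of genes (%) by the highest fold enrichment per gene (log axis), for the 10 splicing factor genes with a peak and for all 1167 ORFs with a peak. The curves meet near a fold enrichment of 8.41, above which the splicing factor curve lies to the right until its last gene.

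The tri-snRNP genes held the highest summit. PRP8 encodes the large U5 snRNP protein that surrounds the catalytic centre, and its summit at chrVIII:437138, 190 bp upstream of the start codon, had a fold enrichment of 55.8 (95% counting interval 54.6 to 57.0). This was rank 8 of the 948 summits, from 8136 fragments over a background of 145. The summit lies between tandem genes, 32 bp beyond the stop codon of CDC23, a subunit of the anaphase-promoting complex, and the rule gave it to no other ORF. The midpoint of its consensus match fell on the summit itself.

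The summits at other genes of the tri-snRNP group had far lower values. PRP4, a WD-repeat protein of the U4/U6 snRNP, had a summit 120 bp upstream with a fold enrichment of 3.35, and PRP6, a protein that bridges U5 to U4/U6, had one 333 bp upstream with a fold enrichment of 2.74. The PRP4 summit lies between divergent genes, 134 bp from the start codon of BET2, a subunit of a geranylgeranyl transferase, and has a consensus match 1 bp away. The PRP6 summit lies inside a leucine tRNA gene, and MRX18 has the nearer start codon, at 245 bp. Inside tRNA genes lay 40.0% of the 527 summits under a fold enrichment of 4 and 4.75% of the 421 stronger ones, and tRNA genes are known to give ChIP signal without specific binding. Whether that holds at PRP6, or at SLU7 below, was not tested. No listed summit was found for PRP3, PRP24, PRP28, PRP31, PRP38, SNU13, SNU23, SNU66 and BRR2. Thus 3 of the 12 genes placed in this group had a summit and 1 was strong, beside 19.4% and 9.88% of all ORFs. The grouping is loose, and not every gene in it codes for a stable part of the tri-snRNP.

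The LSm ring, which binds the end of U6 RNA, had a summit at 3 of its 7 genes, and all 3 were strong. Over all ORFs, 19.4% had a summit and 9.88% a strong one. With 7 genes the share in the ring cannot be read as a difference from other ORFs. LSM4, LSM7 and LSM3 are also part of the cytoplasmic LSm ring that acts in mRNA decay. LSM2, LSM5, LSM6 and LSM8 had no listed summit. The genes within the ring thus differed, from LSM4 at rank 60 to 4 genes with no summit.

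LSM4 had a fold enrichment of 29.8 (28.9 to 30.8) at chrV:387019, 213 bp upstream, from 4179 fragments. The gene on the other side is SWI4, the DNA-binding subunit of the SBF factor, whose start codon is 1143 bp from the summit. The 3 consensus matches printed above lie 41, 14 and 12 bp from this summit, with midpoints 27 and 26 bp apart and on alternating strands. A second summit in the same 1142 bp interval, 823 bp upstream of LSM4 and 533 bp from SWI4, had a fold enrichment of 2.09 and 1 match. Its counting interval does not overlap that of the main summit, and its rank was 909.

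LSM7 had a fold enrichment of 21.5 (20.7 to 22.3) at chrXIV:350138, from 3032 fragments, at rank 112. This summit is 802 bp upstream of LSM7, inside the ORF of ALF1, a tubulin folding factor, and PGA2 has the nearer start codon, at 382 bp. Its 2 consensus matches are 58 bp apart and flank the summit. Assignment to LSM7 thus depends on the 1000 bp limit, and with 500 bp the gene had no summit. LSM3 had a fold enrichment of 4.97 (95% counting interval 4.60 to 5.36) from 667 fragments, 161 bp upstream and 152 bp from the start codon of its divergent neighbour MRPL4, a mitochondrial ribosomal protein, with a match 1 bp away.

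Among the genes of the Sm ring, only SMX2 had a summit, which is 1 of 7, beside 19.4% of all ORFs. SMX2 encodes the SmG protein, and it had a pair of summits in 1 interval. The higher lay at chrVI:103819, 120 bp inside the ORF, with a fold enrichment of 5.50 (5.12 to 5.91) from 758 fragments and a match 1 bp away. The lower lay 343 bp upstream, 229 bp from the start codon of its divergent neighbour LPD1, lipoamide dehydrogenase, with a fold enrichment of 3.47 and 2 matches, and the counting intervals of the pair do not overlap. SMX2 was the only listed gene with a summit in its own ORF. SMB1, SMD1, SMD2, SMD3, SME1 and SMX3 had no listed summit.

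The Prp19 group had a summit at 1 of 5 genes, beside 19.4% of all ORFs. CWC2, an RNA-binding protein that contacts U6 RNA, had a fold enrichment of 8.41 (7.94 to 8.91) at chrIV:87366, 140 bp upstream, from 1180 fragments and with a match 4 bp away. The same summit is 146 bp from the start codon of NHP2, a protein of the H/ACA snoRNPs, on the other side, and 882 bp from that of GLE1, an mRNA export factor. PRP19, CEF1, PRP45 and PRP46 had no listed summit.

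The remaining groups held only weak summits. SLU7, which acts in the second step of splicing, had a fold enrichment of 2.87 at a summit 361 bp upstream that lies inside an arginine tRNA gene and has no match. The helicase genes PRP2, PRP16, PRP22 and PRP43 and the second-step factor gene PRP18 had none. MUD1, an RNA-binding protein of the U1 snRNP, had a fold enrichment of 2.03 (1.79 to 2.30) from 258 fragments over a background of 126, the fewest fragments of any summit in the list. The MUD1 summit has no match near it and lies 7 bp past the stop codon of TEF2, a gene of elongation factor EF-1 alpha. The paper regards weak apparent signal over ORFs, as over tRNAs, as a known ChIP artefact. Whether that holds at MUD1 was not tested. PRP39, PRP40, PRP42 and SNU71 of the U1 group and all 5 listed U2 genes, MUD2, PRP5, PRP9, PRP11 and PRP21, had no summit under the rule. Between neighbours in the order of the 12 fold enrichments, the counting intervals overlapped in 5 of 11 pairs, namely SMX2 in the ORF and LSM3, upstream SMX2 and PRP4, PRP4 and SLU7, SLU7 and PRP6, and the second LSM4 summit and MUD1.

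The limits of the rule left peaks just outside, strong ones among them. A summit at chrX:54248, 65 bp past the stop codon of PRP21, a subunit of SF3a in the U2 snRNP, had a fold enrichment of 60.7 (59.4 to 62.0) from 8240 fragments, at rank 3 of the list. The rule gives it to ECM25, whose start codon is 131 bp away. PRP40 had a summit 1254 bp upstream with a fold enrichment of 12.3, and SNU13 a weak one 1407 bp upstream at 2.41. Strong summits also lay past the stop codons of PRP43 (955 bp, fold enrichment 10.8), PRP19 (1127 bp, 4.30) and SMX3 (1214 bp, 15.8). The farthest summits inside the limit were the second one of LSM4 at 823 bp and that of LSM7 at 802 bp. For the 37 genes with no summit, the nearest one in the list lay a median of 6224 bp away, and for 21 of them more than 5000 bp. The same distances over all ORFs are not given here, so these are not read as a trait of the genes. The list holds only summits with a fold enrichment of at least 2 and a q-value of at most 0.001, so weaker binding was not detectable here.

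**Figure D3:**
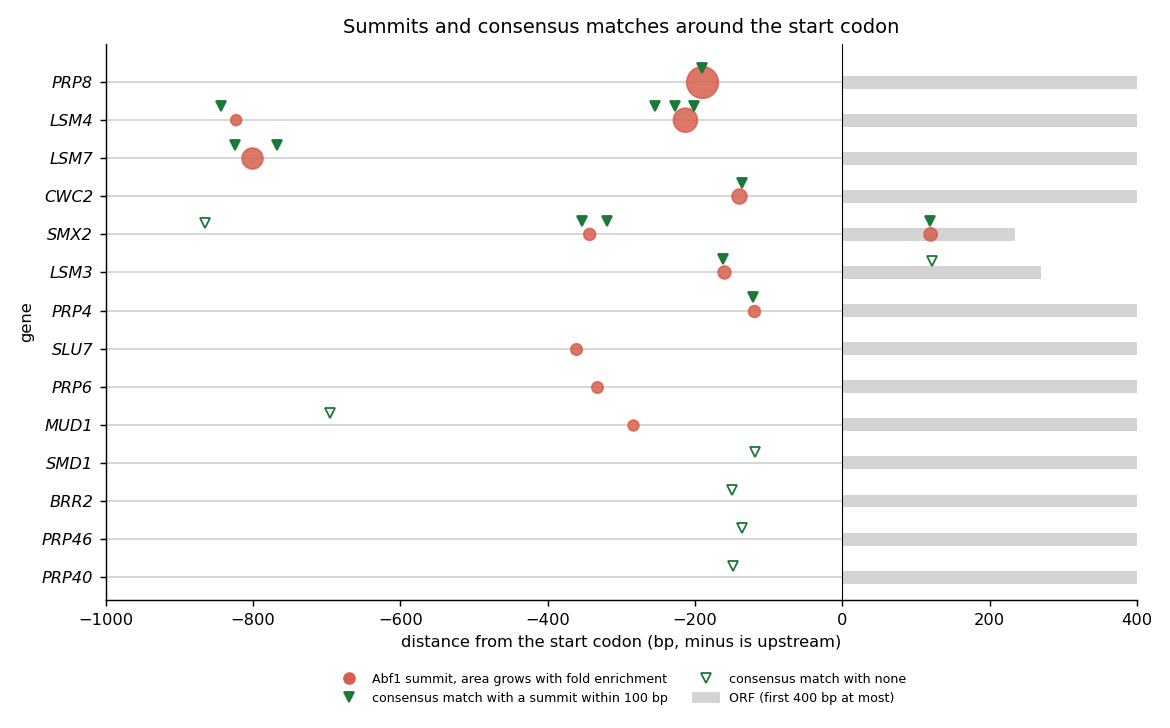
Positions of Abf1 summits (circles, area growing with fold enrichment) and consensus matches (filled triangles, summit within 100 bp; open triangles, none) from 1000 bp upstream to 400 bp downstream of the start codon, for the 10 genes with a summit and the 4 genes with a promoter match but no listed summit. PRP8 and LSM4 have summits at 190 and 213 bp, and the summits of SLU7, PRP6 and MUD1 have no match near them.

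Summits lay mainly upstream. Of the 12 pairs of a summit and a splicing factor gene, 11 (91.7%) were upstream of the start codon, against 88.7% of 1267 such pairs over all ORFs. The median upstream distance was 284 bp for splicing factor genes and 343 bp for all ORFs. Of the 12 summits, 8 (66.7%) also belonged to another ORF by the rule, against 64.6% of all pairs, and for 5 of the 12 another ORF had the nearer start codon. Divergent neighbours flanked 8 of the 12 summits (66.7%), tandem neighbours 2, and ORFs held 2. Of the 826 summits that the rule gives to any ORF, 40.9% lay between divergent, 40.4% between tandem and 1.33% between convergent ORFs, and 17.3% inside ORFs. The rule itself favours divergent gaps, where a summit can belong to an ORF on each side, so nothing is read from this share. Whether the binding at a shared promoter acts on 1 gene or on both was not tested.

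A consensus match lay within 100 bp of 9 of the 12 splicing factor summits (75.0%), against 558 of all 948 summits (58.9%) and 2.81% of genome windows of 201 bp. With 1 mismatch allowed, the shares were 75.0% of the splicing factor summits and 76.7% of all summits, so the higher share of exact matches is not a result about these genes. All 6 strong splicing factor summits had a match, as did 88.1% of the 421 strong summits in the list. Of the 6 weaker ones 3 did, against 35.5% of 527. The 3 summits without a match, at SLU7, PRP6 and MUD1, also had none with 1 mismatch, and 2 of them are the ones inside tRNA genes. In the whole list 231 summits (24.4%) lay inside tRNA genes. At least 2 matches were found at 3 of the 12 summits, those of LSM4, LSM7 and upstream SMX2, and at 6.22% of all summits. The nearest match was a median of 4 bp from the splicing factor summits and 10 bp from all summits with a match.

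**Figure D4:**
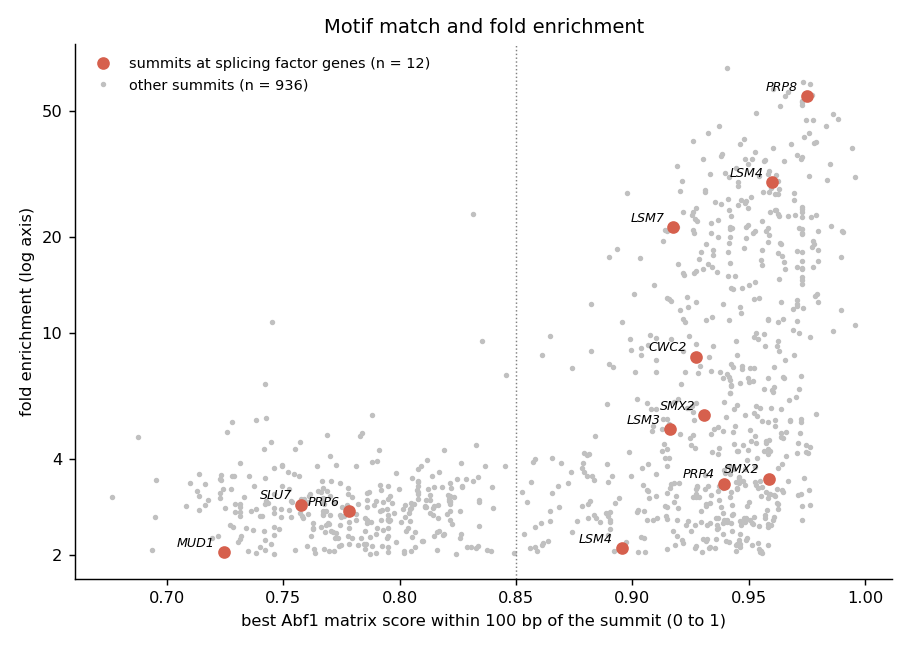
Fold enrichment of each summit (log axis) against the best Abf1 matrix score within 100 bp (0 to 1), for the 12 splicing factor summits (named) and the other 936; the dotted line is at 0.85. SLU7, PRP6 and MUD1 lie left of the line below a fold enrichment of 4, and PRP8 has the highest score of the named summits.

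A weight matrix built from 397 strong sites at no splicing factor gene scored the matches from 0 to 1. PRP8 had the highest score of the matches near a summit at these genes, 0.975, and the right match of LSM4 had 0.960, but the score did not order the fold enrichments. The upstream SMX2 summit reached 0.959 with a fold enrichment of 3.47, and LSM7 0.918 with a fold enrichment of 21.5. Formaldehyde crosslinking of Abf1 is known to be favoured by a G or C at position -8 from the midpoint of the match, so this base was recorded. It was G or C in at least 1 match at 6 of the 9 splicing factor summits with a match, of which 5 were strong, and A or T in every match at PRP8, upstream SMX2 and PRP4. Over the whole list, 245 of 558 summits with a match had G or C, and 84.5% of these were strong. The other 313 had only A or T, and 52.4% of them were strong. The median fold enrichment was 15.6 for the 245 and 4.20 for the 313. With 9 summits, the counts at splicing factor genes cannot be read as a difference from the list. The PRP8 summit, with A at this position, was number 3 by fold enrichment among these 313. The paper left out peaks with A or T at -8 of any match. It reports that low signals at such sites did not fall during depletion, and gives rebinding of cytosolic Abf1 during ChIP as their likely source. Whether this holds at PRP8, PRP4 or upstream SMX2, or at LSM4 with T in its left and middle matches, was not tested.

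The splicing factor genes held 30 consensus matches by the same position rule, of which 13 (43.3%) lay within 100 bp of a summit, against 593 of 1681 (35.3%) over all ORFs. Within 300 bp upstream of the start codon, 7 of 11 matches had a summit at splicing factor genes and 376 of 720 (52.2%) did at all ORFs. The 4 of the 11 without one were at SMD1 (score 0.963), BRR2 (0.945), PRP46 (0.939) and PRP40 (0.922), and all have A or T at -8. Over all ORFs, 43.4% of the 558 promoter matches with A or T at -8 had a summit, and 82.7% of the 162 with G or C. The SMD1 match scored higher than every match with a summit at the splicing factor genes except that of PRP8. The PRP40 match and the PRP8 match share their first 11 printed bases and 19 of 29 in all, yet the nearest summit to the PRP40 match was 1105 bp away. Whether Abf1 binds these sites without crosslinking was not tested.

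The wider splicing machinery was described with a list of 43 further splicing genes, of which 5 (11.6%) had a summit and 4 (9.30%) a strong one. The 4 strong ones are among the 17 further genes of the Prp19 complex or related to it (23.5%), beside 1 of the 5 listed ones and 9.88% of all ORFs. With so few genes the share cannot be read as a difference. CWC25, a factor of the first step, had a fold enrichment of 42.6 at a summit 998 bp upstream that also lies near SUI1 and SLA2. CLF1, a scaffold protein, had a fold enrichment of 15.3 at 111 bp, SYF2 had 10.8 at 135 bp, and BUD31 had 4.26 at 322 bp with no match. Of the U2 group, none of the 16 genes, listed and further ones together, had a summit, beside 19.4% of all ORFs. This count is also too small to be read as a difference, and it holds only for summits, since the interval of the peak beyond the stop codon of PRP21 overlaps that gene.

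The RNA components showed summits as well. Of the 5 spliceosomal snRNA genes, 4 had a summit in the gene or within 1000 bp upstream (80%), and 2 had a strong one (40%). By the same rule 39.5% of 76 snoRNA genes had a summit and 7.89% a strong one, and of 275 tRNA genes 86.2% and 8%. Over all ORFs the shares were 19.4% and 9.88%. With 5 genes, the snRNA shares cannot be read as a difference from any of these. LSR1, the gene of U2 RNA, had a fold enrichment of 13.8 (13.2 to 14.4) at a summit 218 bp upstream, and SNR14, the gene of U4 RNA, had a fold enrichment of 10.6 (10.1 to 11.1) at 133 bp upstream, also 834 bp from TMA20. SNR7, the gene of U5 RNA, had a fold enrichment of 2.48 at 153 bp upstream and a lower one inside the gene. The upstream summit is nearer to PET54, whose start codon is 98 bp away, and it lies 833 bp from that of TOS2. SNR6, the gene of U6 RNA, which RNA polymerase III transcribes, had a fold enrichment of 2.71 inside the gene, and LSR1 had a second summit, of fold enrichment 2.13, inside the gene. The 3 upstream summits each had a consensus match and the 3 inside the genes had none. SNR19, the gene of U1 RNA, had no listed summit.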

How the data were processed

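Abf1 ChIP-seq and input samples of t = 0 (3 each) were mapped to groups from the labels. As the submitters' notes give them, the authors used HISAT2 2.0.5, MACS2 2.1.1.20160309 and bedtools 2.27, with sacCer3 as the genome. Paired-end reads were aligned, duplicates were removed with molecular identifiers, unique reads were kept, and peaks were called on the pooled samples against the pooled inputs, the limits being 0.001 for the q-value and 2 for the fold enrichment. The deposited values per peak are a fold enrichment (ratio of pileup to background), a −log10 p-value, a −log10 q-value and a score that the peak caller derives from the q-value and that was not used. Requiring unique reads can lower signal in repeats such as tRNA genes. Unused columns of other samples numbered 0.

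Fragments and background were solved from the deposited ratio and −log10 p-value by inverting the peak caller's Poisson test, and came out whole within 0.01 for 941 of 948 summits. ORFs run from start to stop codon in the RefSeq R64 annotation, introns included, and U5 RNA was taken as the long form of SNR7. The matrix covered 15 positions with a pseudocount of 0.8. Strong is a fold enrichment of 4. No test was made across genes or peaks. The members and lists were chosen with earlier results of these data known. All members with a summit are named with values, and of the further splicing genes those that are strong. Functions were tested on simulated data. Alternatives varied the assignment, the fold enrichment line and the motif. Computation ran in Python 3.11.15 with scipy 1.17.1, pandas 2.3.3 and numpy 2.4.6, and figures were drawn with matplotlib 3.10.9.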

Additional observations from a re-analysis of the deposited data

How the results depend on the processing

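Of 31 combinations of a result and an alternative, 26 stayed within a set range. For counts this was 1.5 times the count given. For the median it ran from the median of the lower counting limits of the genes to that of the upper ones, 4.86 to 5.63. That range is not an interval of the median itself. The number of splicing factor genes with a summit ran from 7 to 12 of 47. It was 7 within 300 bp (10.4% of all ORFs), with the nearest start codon only (13.1%) and at fold enrichment 3 or more (13.5%). It was 12 with any overlap of the interval (24.2% of all ORFs), which added PRP21 and PRP40. The share of all ORFs moved with the setting too, so this range is not a result about splicing factor genes. The number with a fold enrichment of 10 or more was 3 (against 6 at 4 or more), beside 5.51% of all ORFs. The median of the highest fold enrichment per gene was 4.22 when only summits upstream of the start codon were counted, which drops the higher SMX2 summit (all ORFs 4.15), 6.96 without summits in tRNA genes (5.28), 6.96 with interval overlap (4.53) and 8.41 among summits of fold enrichment 3 or more (7.25). The number of summits with a consensus was 9 in every motif setting except with only the highest summit of each interval, where it was 7 of 10. The share of all summits was 58.9% with the exact consensus, 67.1% with the core letters, 66.4% with the matrix and 76.7% with 1 mismatch, which passes the 75.0% of the splicing factor summits. The matrix was chosen after seeing the data. No paired analysis was possible because peaks were called on the pooled replicates, and no replicate could be left out for the same reason. Counts of fragments limit only the weakest summits, such as that of MUD1 and the lower one of LSM4, whose intervals reach below a fold enrichment of 2.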
